A study of Rattus norvegicus with 12 samples.

Results

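The mitosis and spindle genes are 58 genes of the last stretch of the cell cycle, from cyclins and kinases of mitotic entry to the kinetochore, the spindle, anaphase, cytokinesis and condensin. They were taken from a list of rat symbols that was chosen with earlier results of these data known. A gene was measured where a probe on the array carried a RefSeq accession of its symbol. Of the 58 genes, 49 had such a probe, with 72 probes in all, and 47 entered the tests, among 10741 genes with a tested probe. L6 is a rat skeletal muscle line whose myoblasts fuse into multinucleated myotubes in culture. Myotubes, differentiated for 6 days by the labels and 7 by the study's methods, received 60 µM GR24, pinosylvin or resveratrol for 24 h, and the control received the solvent DMSO alone. GR24 is a synthetic strigolactone analog, pinosylvin and resveratrol are plant stilbenes, and resveratrol differs from pinosylvin by a further hydroxyl group. Each of the 4 groups had 3 arrays from 3 independent experiments, all with cells of 1 line, so that no other muscle cells are represented and there was 1 dose and 1 time.

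Entry into mitosis is driven by cyclin-dependent kinase Cdk1 bound to a B-type cyclin, after which kinetochores attach chromosomes to spindle microtubules and a checkpoint holds back anaphase until all are attached. Most genes of this machinery are transcribed together late in the cell cycle, through MuvB complexes with B-Myb and FoxM1, and many of their promoters carry a short element called the cell cycle genes homology region together with CCAAT boxes, which the factor NF-Y binds. In skeletal muscle, myoblasts leave the cell cycle as they differentiate, and the nuclei of myotubes do not normally divide.

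Signal is given throughout as log2 of the background-subtracted intensity minus the 75th percentile of its array over all probes, so that 0 is the brightness of the 75th percentile, and a level of 1 probe cannot be compared with that of another. A change is a difference of group means on this scale, where -1 is a halving. Between 57.96% and 64.3% of the spots of an array were well above background, and 3 arrays a group limit the precision of every value. A probe was tested where some group had it well above background on each of its 3 arrays, which left 24279 probes, and an adjusted p under 0.05 is a call. Of the 47 members tested, 45 were above background on all 12 arrays, so that few could have passed through 1 high group alone. Their replicates lay close together, with a median SD within a group of 0.10 and a highest of 0.65, for *Kif2c*. The 9 members with no matched probe, *Anln*, *Cdc25c*, *Cenpe*, *Kif4a*, *Melk*, *Ncapd2*, *Ncapg*, *Spc24* and *Top2a*, have no signal here. They enter the promoter search only. *Hmmr*, a spindle-binding protein, was above background on 2 control arrays and 1 resveratrol array, and *Ska3*, of the outer kinetochore, on 1 control and 1 resveratrol array. Neither was above background on any pinosylvin or GR24 array, and neither was tested.

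With GR24, all 47 tested members were lower than in the control, where 25.5% of all tested probes were called lower and 31.5% higher. The members' median log2 fold change was -2.73, a 6.62-fold decrease, and that of all tested probes was 0.027. With pinosylvin all 47 were lower, against 8.27% of all tested probes lower and 8.28% higher, with a median of -1.64 for the members and 0.054 for all probes. With resveratrol 46 were lower, against 8.99% lower and 7.99% higher over all probes, and the medians were -0.85 and 0.010. With the replicate number as a block the shares of all tested probes were larger, 30.3% lower and 36.2% higher with GR24, 12.3% and 16.3% with pinosylvin and 13.8% and 14.1% with resveratrol. No member was called higher by limma in any of these comparisons, nor at an unadjusted p under 0.05, where the count was 0 for each compound. The comparisons share their control arrays, so the values stand side by side and are not separate evidence. The decreases ran from -4.08 to -1.04 with GR24, from -2.21 to -0.91 with pinosylvin and from -1.28 to -0.43 with resveratrol. A decrease of over 2-fold was seen in 47 members with GR24, 46 with pinosylvin and 15 with resveratrol, and one of over 4-fold in 38, 3 and 0. These counts describe the members alone and are not set against all tested probes.

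The groups were apart on single arrays as well. For each of the 47 members, all 3 GR24 arrays lay below all 3 control arrays, which 27.2% of all tested probes also did. The same held for 47 members with pinosylvin, against 13.7% of probes, and for 47 with resveratrol, against 15.4%. In 43 of 47 members the group means ran from control through resveratrol and pinosylvin down to GR24, an order found in 6.01% of all tested probes. In 42 of these members no array of a group overlapped with the next group, which 1.22% of all tested probes also showed. The order was known from earlier results of these data, so these counts are a description and not a test. The exceptions in the order of means were *Bub1*, *Mad2l1*, *Incenp* and *Smc2*, whose GR24 mean was not the lowest, and *Cdca8* kept the order with an overlap between GR24 and pinosylvin. The summed signal of the members, in units of the array's 75th percentile and with *Cdk1* the brightest, was 295, 298 and 283 on the control arrays and 151, 167 and 150 with resveratrol. It was 94.1, 98.1 and 90.4 with pinosylvin and 48.7, 50.6 and 45.6 with GR24. In RNA from whole cultures, fewer cycling cells and less of these transcripts per cell cannot be told apart.

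A slide carried replicates 1 and 2 of the 4 groups and a further slide carried replicate 3, and each group kept its column on both slides, so position on the slide and group cannot be told apart. A slide held the 4 groups in equal number, so a slide block cannot move the differences between groups. The members' medians against the control were thus the same with it, -2.73 for GR24, -1.64 for pinosylvin and -0.85 for resveratrol. Within slide 1 they were -2.70, -1.61 and -0.85, and within slide 2, with 1 array a group, they were -2.72, -1.71 and -0.89.

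**Figure D1:**
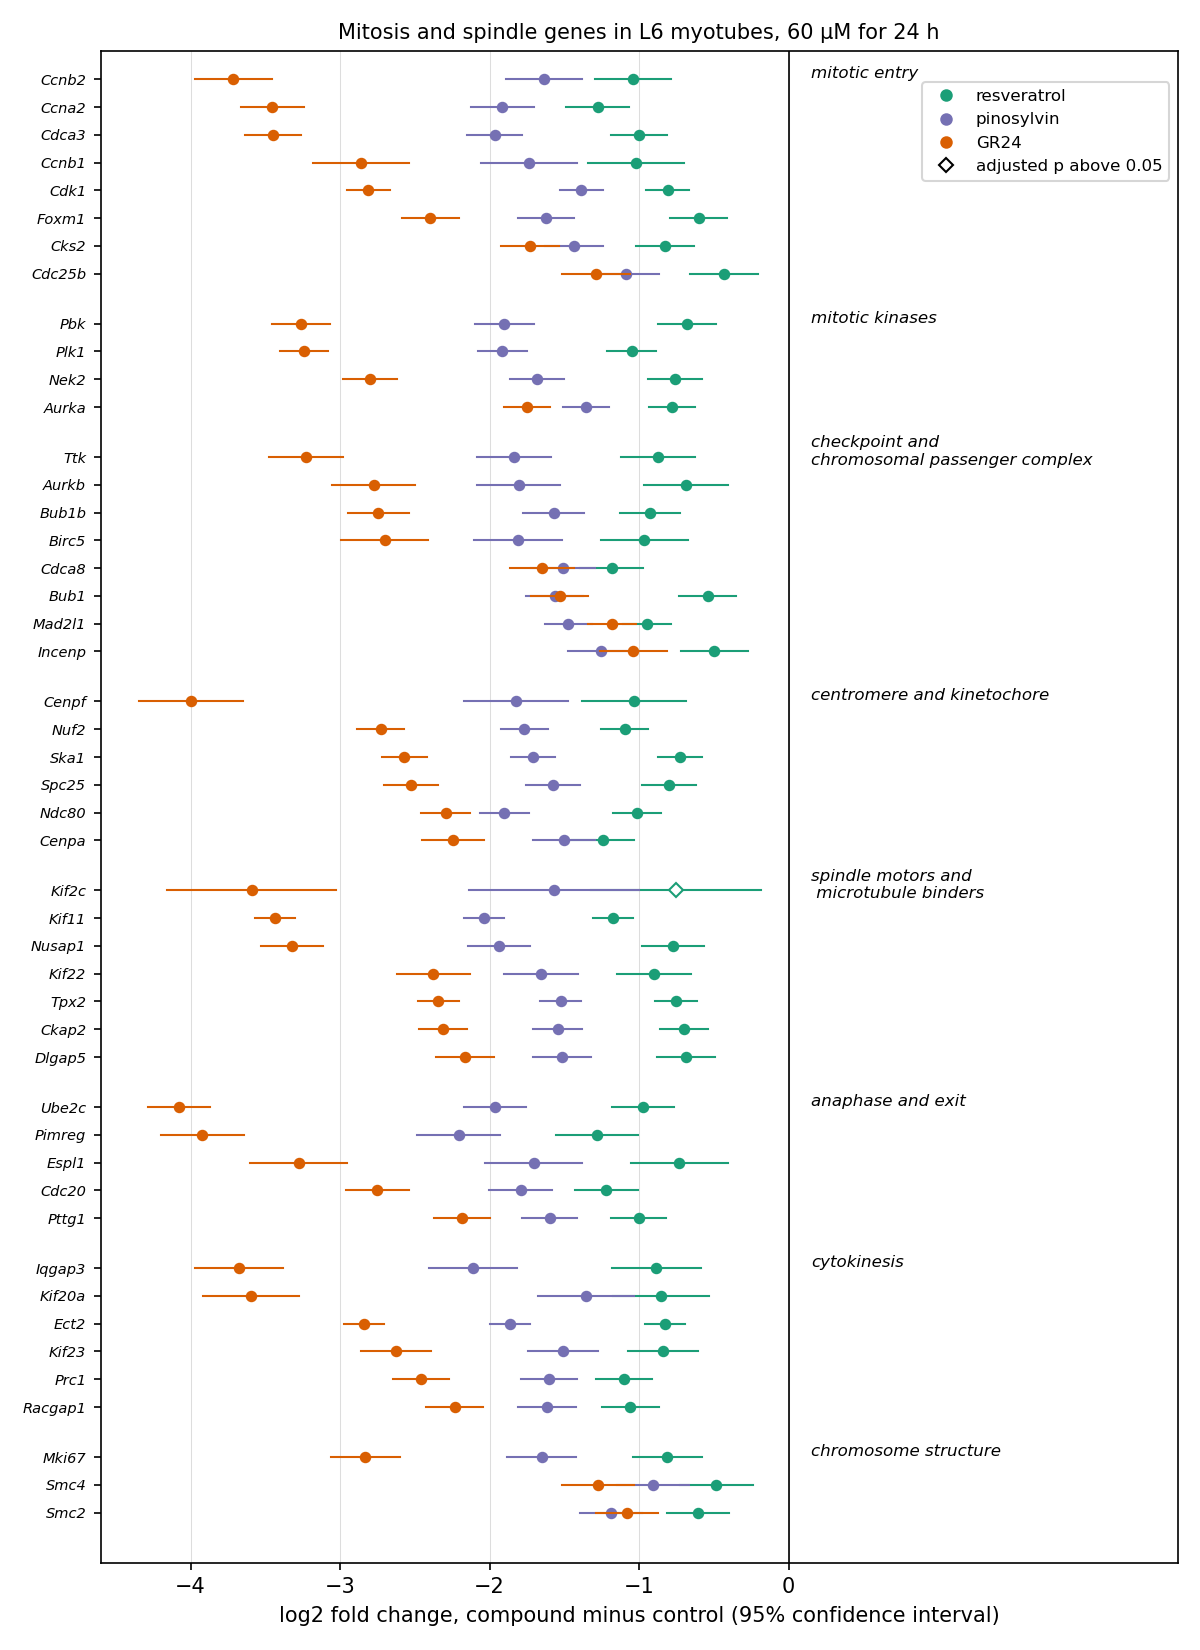
Log2 fold change of each of the 47 tested members with GR24 (orange), pinosylvin (purple) and resveratrol (green) against the control, grouped by role, with bars for the 95% confidence interval. All points lie below 0, the open diamond is *Kif2c* with resveratrol (adjusted p = 0.0708), and for most members the GR24 point is farthest from 0.

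The genes of mitotic entry, 8 of 9 tested, had median changes of -2.84 with GR24, -1.63 with pinosylvin and -0.91 with resveratrol. *Cdk1*, the kinase that drives entry, read 5.08, 5.12 and 5.02 on the control arrays, 4.25, 4.34 and 4.19 with resveratrol, 3.71, 3.72 and 3.61 with pinosylvin and 2.29, 2.29 and 2.20 with GR24. Its change was -2.81 (SE 0.065, adjusted p = 3.55e-10) with GR24, -1.39 (SE 0.065, adjusted p = 7.47e-07) with pinosylvin and -0.81 (SE 0.065, adjusted p = 3.01e-05) with resveratrol. The 4 groups formed separate steps on every array, and within a group the *Cdk1* values differed by less than 0.2. *Ccnb1* encodes cyclin B1, the partner of Cdk1, and read 1.58, 1.61 and 1.45 on the control arrays, 0.44, 0.79 and 0.36 with resveratrol, -0.19, -0.0051 and -0.38 with pinosylvin and -1.26, -1.12 and -1.55 with GR24. It changed by -2.86 (SE 0.144, adjusted p = 6.46e-08) with GR24, -1.74 (SE 0.144, adjusted p = 2.11e-05) with pinosylvin and -1.02 (SE 0.144, adjusted p = 0.000911) with resveratrol. Replicate 3 was the lowest of its group for *Ccnb1* in all 4 groups, and no groups overlapped. The other B-type cyclin, *Ccnb2*, read 3.76, 3.71 and 3.59 on the control arrays, 2.61, 2.79 and 2.54 with resveratrol, 2.15, 2.16 and 1.84 with pinosylvin and 0.019, 0.11 and -0.21 with GR24. Its change with GR24, -3.71 (SE 0.115, adjusted p = 2.53e-09), was the largest of the entry genes, and the GR24 arrays stood far below the pinosylvin arrays, with a difference of -2.08 (adjusted p = 1.63e-07). *Ccna2*, cyclin A2 of S phase and early mitosis, had the largest resveratrol change of the entry genes.

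*Ccna2* read 2.63, 2.80 and 2.81 on the control arrays, 1.35, 1.60 and 1.46 with resveratrol, 0.71, 0.95 and 0.83 with pinosylvin and -0.74, -0.59 and -0.78 with GR24. Its change was -3.45 (SE 0.094, adjusted p = 1.04e-09) with GR24, -1.92 (SE 0.094, adjusted p = 8.58e-07) with pinosylvin and -1.28 (SE 0.094, adjusted p = 1.9e-05) with resveratrol. Every treated array of *Ccna2* lay more than 1 unit below every control array. The transcription factor gene *Foxm1*, which activates many of the other members, read 1.70, 1.78 and 1.68 on the control arrays, 1.200, 1.17 and 0.99 with resveratrol, 0.19, 0.12 and -0.020 with pinosylvin and -0.56, -0.73 and -0.74 with GR24. Its change was -2.40 (SE 0.085, adjusted p = 6.15e-09) with GR24, -1.62 (SE 0.085, adjusted p = 1.2e-06) with pinosylvin and -0.60 (SE 0.085, adjusted p = 0.000911) with resveratrol. The resveratrol arrays of *Foxm1* were nearer to the control than those of the cyclins, and the steps from resveratrol to pinosylvin and from pinosylvin to GR24 left gaps between all groups. *Cdc25b* encodes a phosphatase that activates Cdk1, and read 1.57, 1.57 and 1.35 on the control arrays, 1.18, 1.12 and 0.89 with resveratrol, 0.39, 0.52 and 0.30 with pinosylvin and 0.18, 0.14 and 0.30 with GR24. It had the smallest resveratrol change of all members, -0.43 (SE 0.101, adjusted p = 0.0148), a call lost under 5 of 28 alternatives (adjusted p up to 0.0613), and fell by 1.09 with pinosylvin and 1.29 with GR24. GR24 and pinosylvin did not differ at the threshold for *Cdc25b*, -0.20 (95% confidence interval -0.42 to 0.027, adjusted p = 0.123), and the highest GR24 array and the lowest pinosylvin array both read 0.30. That difference passed within slide 1 (-0.29, adjusted p = 0.0112) and with normexp and quantile normalization (adjusted p = 0.0376). *Cks2*, whose product binds cyclin-dependent kinases, and *Cdca3*, an adaptor for the destruction of the kinase Wee1, were lower with each compound.

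Of the further mitotic kinases, 4 of 5 were tested, with medians of -3.02, -1.79 and -0.77 for GR24, pinosylvin and resveratrol. *Plk1*, the polo kinase that acts from entry to cytokinesis, read 3.89, 3.98 and 3.94 on the control arrays, 2.80, 3.01 and 2.86 with resveratrol, 2.02, 2.10 and 1.95 with pinosylvin and 0.70, 0.75 and 0.64 with GR24. Its change was -3.24 (SE 0.073, adjusted p = 3.55e-10) with GR24, -1.91 (SE 0.073, adjusted p = 2.75e-07) with pinosylvin and -1.05 (SE 0.073, adjusted p = 1.46e-05) with resveratrol, and with GR24 this is a 9.45-fold decrease. No *Plk1* array of a group reached into the next group. *Aurka*, the Aurora kinase of centrosomes and spindle poles, read 2.12, 2.23 and 2.22 on the control arrays, 1.34, 1.46 and 1.43 with resveratrol, 0.78, 0.85 and 0.87 with pinosylvin and 0.43, 0.55 and 0.35 with GR24. Its change was -1.75 (SE 0.069, adjusted p = 1.13e-08) with GR24, -1.36 (SE 0.069, adjusted p = 1.06e-06) with pinosylvin and -0.78 (SE 0.069, adjusted p = 5.67e-05) with resveratrol. The GR24 decrease of *Aurka* was the smallest of these kinases, and its GR24 and pinosylvin arrays were still apart. With the mean over its tested probes *Aurka* changed by -0.92 with GR24 and -0.63 with pinosylvin. *Pbk*, a kinase active in mitosis, read 1.12, 1.01 and 1.26 on the control arrays, 0.39, 0.57 and 0.41 with resveratrol, -0.73, -0.89 and -0.69 with pinosylvin and -2.06, -2.14 and -2.19 with GR24. It had one of the largest differences between pinosylvin and resveratrol, -1.22 (SE 0.088, adjusted p = 2.47e-05), where its resveratrol arrays were positive and its pinosylvin arrays negative. *Nek2*, which splits centrosomes, changed by -2.80, -1.68 and -0.76 in the same order of compounds.

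All 8 genes of the spindle checkpoint and the chromosomal passenger complex were tested, with medians of -2.18, -1.57 and -0.90. *Bub1b*, whose product BubR1 blocks the anaphase-promoting complex, read 0.30, 0.33 and 0.47 on the control arrays, -0.75, -0.39 and -0.55 with resveratrol, -1.17, -1.29 and -1.16 with pinosylvin and -2.41, -2.37 and -2.35 with GR24. Its change was -2.74 (SE 0.091, adjusted p = 3.83e-09) with GR24, -1.57 (SE 0.091, adjusted p = 1.92e-06) with pinosylvin and -0.93 (SE 0.091, adjusted p = 9.74e-05) with resveratrol. For *Bub1b* the GR24 arrays agreed within 0.1 and lay over 1 unit below the pinosylvin arrays. *Bub1*, the kinase that recruits other checkpoint proteins to kinetochores, read 1.92, 2.09 and 2.03 on the control arrays, 1.47, 1.53 and 1.42 with resveratrol, 0.45, 0.42 and 0.48 with pinosylvin and 0.52, 0.63 and 0.31 with GR24. It fell by 1.53 with GR24 and 1.57 with pinosylvin, and the difference between these was 0.034 (95% confidence interval -0.16 to 0.22, adjusted p = 0.763). The GR24 and pinosylvin arrays of *Bub1* overlapped, and both groups were well below resveratrol. *Ttk*, the Mps1 kinase at the top of the checkpoint, changed by -3.23, -1.84 and -0.88 with GR24, pinosylvin and resveratrol.

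*Mad2l1* encodes Mad2, the checkpoint protein that binds Cdc20, and read 0.39, 0.43 and 0.38 on the control arrays, -0.61, -0.43 and -0.60 with resveratrol, -1.08, -1.07 and -1.06 with pinosylvin and -0.80, -0.66 and -0.88 with GR24. Its change was -1.18 (SE 0.072, adjusted p = 2.61e-07) with GR24, -1.47 (SE 0.072, adjusted p = 8.33e-07) with pinosylvin and -0.95 (SE 0.072, adjusted p = 2.24e-05) with resveratrol. It was the only member called higher with GR24 than with pinosylvin, 0.29 (95% confidence interval 0.13 to 0.45, adjusted p = 0.00576), and its pinosylvin arrays were the lowest of the 4 groups. *Aurkb* encodes the kinase of the passenger complex, and read -0.50, -0.70 and -0.68 on the control arrays, -1.46, -1.09 and -1.39 with resveratrol, -2.52, -2.22 and -2.56 with pinosylvin and -3.30, -3.36 and -3.55 with GR24. Its change was -2.77 (SE 0.125, adjusted p = 2.98e-08) with GR24, -1.81 (SE 0.125, adjusted p = 6.04e-06) with pinosylvin and -0.69 (SE 0.125, adjusted p = 0.00401) with resveratrol, and pinosylvin lay -1.12 (adjusted p = 0.000288) from resveratrol. Its GR24 change was -1.90 with normexp and quantile normalization. The *Aurkb* probe was dim, but it was above background on all 12 arrays, and the groups did not overlap. *Birc5*, or survivin, which directs the complex to centromeres, read 2.15, 2.38 and 2.16 on the control arrays, 1.06, 1.49 and 1.25 with resveratrol, 0.51, 0.54 and 0.21 with pinosylvin and -0.54, -0.32 and -0.56 with GR24. Its change was -2.70 (SE 0.131, adjusted p = 4.94e-08) with GR24, -1.81 (SE 0.131, adjusted p = 8.59e-06) with pinosylvin and -0.96 (SE 0.131, adjusted p = 0.000721) with resveratrol. All *Birc5* groups were apart, with the lowest value of each group above the highest of the next.

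The remaining passenger genes fell less with GR24. *Incenp*, the scaffold of the complex, read 1.99, 2.15 and 1.82 on the control arrays, 1.55, 1.57 and 1.35 with resveratrol, 0.69, 0.87 and 0.64 with pinosylvin and 0.98, 0.97 and 0.90 with GR24. Its GR24 change, -1.04 (SE 0.101, adjusted p = 8.7e-06), was the smallest of all members, its resveratrol change was -0.50, and GR24 lay 0.22 (95% confidence interval -0.0070 to 0.44, adjusted p = 0.0916) from pinosylvin. For *Incenp* the GR24 arrays all lay above the pinosylvin arrays, a difference that did not pass the threshold, except under some alternatives such as the replicate number as a block (adjusted p = 0.0130). *Cdca8*, or borealin, read -1.42, -1.34 and -1.54 on the control arrays, -2.63, -2.47 and -2.75 with resveratrol, -2.94, -2.94 and -2.95 with pinosylvin and -3.17, -2.92 and -3.16 with GR24. Its pinosylvin and GR24 arrays overlapped, with a difference of -0.14 (95% confidence interval -0.35 to 0.072, adjusted p = 0.243), and pinosylvin lay -0.33 (SE 0.095, adjusted p = 0.0449) from resveratrol, a call lost under 16 of 28 alternatives (adjusted p up to 0.308).

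Of the centromere and kinetochore genes, 6 of 9 were tested, with medians of -2.55, -1.74 and -1.02. *Ndc80*, of the complex that grips microtubule ends, read 2.43, 2.34 and 2.38 on the control arrays, 1.34, 1.46 and 1.30 with resveratrol, 0.51, 0.52 and 0.41 with pinosylvin and 0.16, 0.13 and -0.033 with GR24. Its change was -2.30 (SE 0.073, adjusted p = 2.95e-09) with GR24, -1.90 (SE 0.073, adjusted p = 2.75e-07) with pinosylvin and -1.02 (SE 0.073, adjusted p = 1.72e-05) with resveratrol. On this probe the *Ndc80* step from resveratrol to pinosylvin was -0.89 and that from pinosylvin to GR24 -0.39, and on the 2 further tested *Ndc80* probes the second step was the larger, at -0.60 against -1.41 and -0.67 against -1.87. *Cenpf*, a large protein of the outer kinetochore, read 0.91, 0.57 and 0.57 on the control arrays, -0.44, -0.13 and -0.48 with resveratrol, -0.97, -0.98 and -1.46 with pinosylvin and -3.39, -3.16 and -3.39 with GR24. Its change was -3.998 (SE 0.157, adjusted p = 1.08e-08) with GR24, -1.82 (SE 0.157, adjusted p = 2.81e-05) with pinosylvin and -1.03 (SE 0.157, adjusted p = 0.00137) with resveratrol. With GR24 *Cenpf* was 16-fold lower than in the control, or 8.75-fold with normexp and quantile normalization, and the GR24 arrays lay -2.18 (adjusted p = 1.12e-06) from pinosylvin, with a wide gap between the groups. *Cenpa*, the histone H3 variant that marks centromeres, read -1.12, -1.12 and -1.10 on the control arrays, -2.36, -2.35 and -2.35 with resveratrol, -2.58, -2.45 and -2.82 with pinosylvin and -3.29, -3.30 and -3.50 with GR24. Its change was -2.25 (SE 0.093, adjusted p = 1.59e-08) with GR24, -1.504 (SE 0.093, adjusted p = 2.95e-06) with pinosylvin and -1.24 (SE 0.093, adjusted p = 2.21e-05) with resveratrol. The *Cenpa* change with GR24 was -1.49 with normexp and quantile normalization. Pinosylvin and resveratrol did not differ at the threshold for *Cenpa*, -0.26 (95% confidence interval -0.47 to -0.056, adjusted p = 0.0909), though all pinosylvin arrays read lower, and it passed with the replicate number as a block (adjusted p = 0.0399). The difference shrank to -0.062 under another alternative, and adjusted p reached 0.76. A second *Cenpa* probe went the other way, at 0.14 (adjusted p = 0.738). *Nuf2* and *Spc25*, partners of *Ndc80* in its complex, and *Ska1*, which couples it to microtubules, changed by -2.73, -2.52 and -2.57 with GR24.

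**Figure D2:**
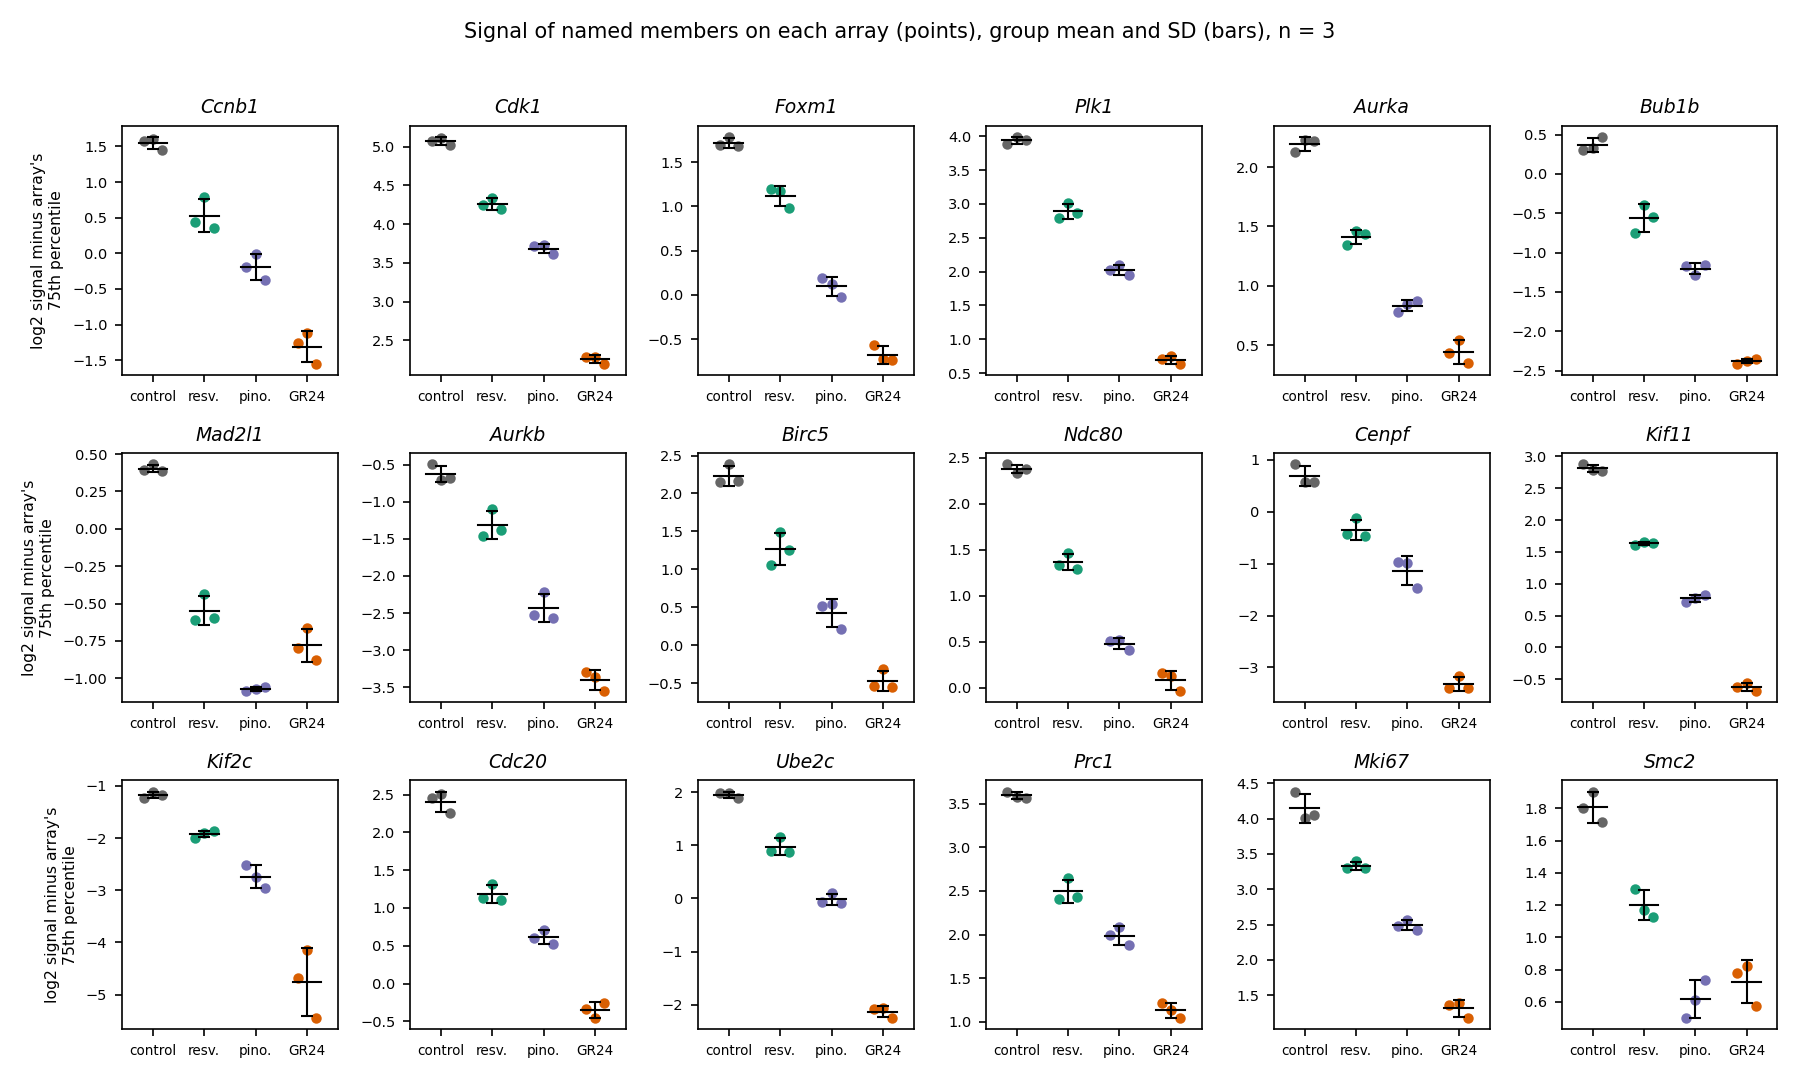
Signal of 18 members on each of the 12 arrays (points), with group mean (line) and SD (bar, n = 3), as log2 of intensity minus the array's 75th percentile, with an axis of its own for each gene. The groups step down from control to GR24 in most panels, and *Mad2l1* and *Smc2* have their lowest mean with pinosylvin.

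Of the spindle motors and microtubule binders, 7 of 9 were tested, with medians of -2.38, -1.57 and -0.76. *Kif11*, or Eg5, the motor that pushes spindle poles apart, read 2.87, 2.79 and 2.76 on the control arrays, 1.61, 1.65 and 1.63 with resveratrol, 0.72, 0.77 and 0.82 with pinosylvin and -0.62, -0.56 and -0.68 with GR24. Its change was -3.43 (SE 0.06, adjusted p = 1.71e-10) with GR24, -2.04 (SE 0.06, adjusted p = 1.8e-07) with pinosylvin and -1.18 (SE 0.06, adjusted p = 1.72e-06) with resveratrol. Replicates of *Kif11* agreed closely in all groups, and its pinosylvin decrease was among the 3 largest. *Tpx2*, which activates Aurora A on the spindle, read 0.54, 0.57 and 0.55 on the control arrays, -0.26, -0.13 and -0.21 with resveratrol, -1.03, -0.88 and -1.01 with pinosylvin and -1.81, -1.79 and -1.77 with GR24. Its change was -2.34 (SE 0.062, adjusted p = 8.93e-10) with GR24, -1.53 (SE 0.062, adjusted p = 3.42e-07) with pinosylvin and -0.75 (SE 0.062, adjusted p = 3.77e-05) with resveratrol. The *Tpx2* groups were apart, with near-even steps between neighbouring groups. *Kif2c*, a motor protein that takes microtubules apart at centromeres, read -1.23, -1.11 and -1.17 on the control arrays, -1.99, -1.91 and -1.87 with resveratrol, -2.52, -2.75 and -2.95 with pinosylvin and -4.68, -4.15 and -5.45 with GR24. Its GR24 signal was above background on 2 of 3 arrays, and its GR24 change was -3.59 (SE 0.255, adjusted p = 8.55e-07), or -2.06 with normexp and quantile normalization, so that its size depends on the processing. *Kif2c* was the member not called with resveratrol, -0.76 (95% confidence interval -1.32 to -0.19, adjusted p = 0.0708), and pinosylvin and resveratrol differed by -0.81 (95% confidence interval -1.38 to -0.25, adjusted p = 0.06). With the replicate number as a block both differences of *Kif2c* passed the threshold (adjusted p = 0.0439 and 0.0359). Its control, resveratrol and pinosylvin arrays did not overlap, with SDs of 0.058, 0.062 and 0.22, whereas the GR24 arrays spread over more than 1 unit, which enters the shared estimate of its error.

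*Nusap1*, which bundles microtubules near chromosomes, changed by -3.32, -1.94 and -0.77 with GR24, pinosylvin and resveratrol, and the difference between pinosylvin and resveratrol was -1.16 (adjusted p = 4.4e-05). The others of this role, the chromosome motor *Kif22* and the microtubule binders *Dlgap5* and *Ckap2*, had GR24 changes of -2.38, -2.16 and -2.31.

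The 5 genes of anaphase and mitotic exit, all tested, had the lowest role median with GR24, -3.28, and medians of -1.79 with pinosylvin and -1.004 with resveratrol. *Cdc20*, the activator of the anaphase-promoting complex, read 2.46, 2.50 and 2.25 on the control arrays, 1.13, 1.32 and 1.10 with resveratrol, 0.61, 0.71 and 0.53 with pinosylvin and -0.33, -0.46 and -0.25 with GR24. Its change was -2.75 (SE 0.095, adjusted p = 4.83e-09) with GR24, -1.79 (SE 0.095, adjusted p = 1.22e-06) with pinosylvin and -1.22 (SE 0.095, adjusted p = 2.52e-05) with resveratrol. No *Cdc20* array overlapped with another group. *Ube2c*, the ubiquitin-conjugating enzyme of that complex, read 1.99, 1.98 and 1.88 on the control arrays, 0.89, 1.15 and 0.88 with resveratrol, -0.069, 0.10 and -0.078 with pinosylvin and -2.08, -2.06 and -2.25 with GR24. It had the largest GR24 decrease of all members, -4.08 (SE 0.094, adjusted p = 3.55e-10), a 16.9-fold drop, with -1.96 (adjusted p = 7.5e-07) for pinosylvin and -0.98 (adjusted p = 8.5e-05) for resveratrol. This rank depends on the processing, since under an alternative the GR24 change of *Ube2c* was -3.56. Those of *Pimreg* and *Ccnb2* were at -3.59 and -3.58 or lower under every alternative. The pinosylvin arrays of *Ube2c* sat about midway between control and GR24. *Pimreg*, a mitotic regulator of the metaphase to anaphase step, read 3.06, 3.21 and 3.34 on the control arrays, 1.76, 1.98 and 2.02 with resveratrol, 0.87, 0.999 and 1.13 with pinosylvin and -0.95, -0.54 and -0.66 with GR24. Its change was -3.92 (SE 0.125, adjusted p = 2.91e-09) with GR24, -2.21 (SE 0.125, adjusted p = 1.64e-06) with pinosylvin and -1.28 (SE 0.125, adjusted p = 9.31e-05) with resveratrol. The decreases of *Pimreg* with pinosylvin and with resveratrol were the largest among the members. *Pttg1* encodes securin, the inhibitor of separase, and *Espl1* separase itself, and their GR24 changes were -2.19 and -3.28.

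Of the cytokinesis genes, 6 of 7 were tested, with medians of -2.73, -1.61 and -0.87. *Prc1*, which bundles the microtubules of the central spindle, read 3.64, 3.57 and 3.57 on the control arrays, 2.41, 2.64 and 2.43 with resveratrol, 1.99, 2.09 and 1.88 with pinosylvin and 1.22, 1.14 and 1.04 with GR24. Its change was -2.46 (SE 0.085, adjusted p = 4.8e-09) with GR24, -1.61 (SE 0.085, adjusted p = 1.2e-06) with pinosylvin and -1.10 (SE 0.085, adjusted p = 2.38e-05) with resveratrol. The *Prc1* groups stood apart on all arrays. *Iqgap3*, a scaffold protein of the IQGAP family, read -0.84, -0.96 and -1.06 on the control arrays, -1.95, -1.56 and -1.999 with resveratrol, -3.11, -2.83 and -3.24 with pinosylvin and -4.66, -4.56 and -4.66 with GR24. Its change was -3.67 (SE 0.133, adjusted p = 6.79e-09) with GR24, -2.11 (SE 0.133, adjusted p = 3.17e-06) with pinosylvin and -0.88 (SE 0.133, adjusted p = 0.00127) with resveratrol, with the GR24 signal above background on 2 of 3 arrays. The GR24 change of *Iqgap3* was -2.15 with normexp and quantile normalization, and its pinosylvin change -1.46 with normexp and the 75th percentile. The difference between pinosylvin and resveratrol, -1.23 (SE 0.133, adjusted p = 0.000229), was the largest of the members, a rank that depends on the processing. Under an alternative it was -0.73, and that of *Pbk* was at -1.09 or lower under every alternative. *Kif20a*, a motor of the central spindle, read 3.53, 3.61 and 3.34 on the control arrays, 2.62, 2.82 and 2.49 with resveratrol, 2.25, 2.30 and 1.87 with pinosylvin and -0.069, 0.086 and -0.32 with GR24. It had the largest difference between GR24 and pinosylvin, -2.24 (SE 0.145, adjusted p = 5.1e-07), and a small one between pinosylvin and resveratrol, -0.50 (SE 0.145, adjusted p = 0.0438), a call lost under 11 of 28 alternatives, among them those without any 1 of the pinosylvin or resveratrol arrays (adjusted p up to 0.156). The GR24 arrays of *Kif20a* thus lay far below the other groups, which were closer together without overlap. *Kif23* and *Racgap1*, which together form centralspindlin, and *Ect2*, the exchange factor they recruit, had GR24 changes of -2.62, -2.23 and -2.84. The *Racgap1* value is from a probe matched through a predicted transcript, and its further tested probes changed by -1.67 and -1.87 with GR24.

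Of the genes of chromosome structure, 3 of 6 were tested, and their medians of -1.28, -1.19 and -0.61 were the smallest of the roles. *Mki67*, the Ki-67 protein that coats mitotic chromosomes and is widely used to mark cycling cells, read 4.38, 4.002 and 4.05 on the control arrays, 3.30, 3.40 and 3.30 with resveratrol, 2.48, 2.57 and 2.43 with pinosylvin and 1.37, 1.40 and 1.18 with GR24. Its change was -2.83 (SE 0.104, adjusted p = 7.6e-09) with GR24, -1.65 (SE 0.104, adjusted p = 3.23e-06) with pinosylvin and -0.81 (SE 0.104, adjusted p = 0.000497) with resveratrol. *Mki67* followed the common order with no overlap. *Smc2*, a subunit of condensin, read 1.80, 1.90 and 1.71 on the control arrays, 1.30, 1.17 and 1.13 with resveratrol, 0.50, 0.61 and 0.73 with pinosylvin and 0.78, 0.82 and 0.57 with GR24. Its change was -1.08 (SE 0.093, adjusted p = 3.55e-06) with GR24, -1.19 (SE 0.093, adjusted p = 1.45e-05) with pinosylvin and -0.61 (SE 0.093, adjusted p = 0.00146) with resveratrol, and GR24 and pinosylvin differed by 0.11 (95% confidence interval -0.10 to 0.32, adjusted p = 0.35), which passed within slide 1 alone of the alternatives (0.24, adjusted p = 0.0378). Their arrays overlapped for *Smc2*, and both groups lay below resveratrol. *Smc4*, its partner in condensin, read 1.001, 0.85 and 1.17 on the control arrays, 0.40, 0.63 and 0.53 with resveratrol, 0.15, -0.033 and 0.18 with pinosylvin and -0.27, -0.12 and -0.42 with GR24. Its pinosylvin change, -0.91 (SE 0.11, adjusted p = 0.000309), was the smallest of the members, and its GR24 and resveratrol changes were -1.28 (adjusted p = 3.49e-06) and -0.48 (adjusted p = 0.0128). With the mean over tested probes the pinosylvin change of *Aurka* was smaller, at -0.63. Pinosylvin and resveratrol differed by -0.42 (adjusted p = 0.028) for *Smc4*, whose groups were close but did not overlap. This call was lost under 6 of 28 alternatives (adjusted p up to 0.109), and the resveratrol call of *Smc4* under 2 (up to 0.0628).

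Pinosylvin and resveratrol, given at the same dose for the same time, were compared directly. Of 47 members, 45 were lower with pinosylvin and 0 higher by limma, where 6.85% of all tested probes were lower and 7.68% higher, and at an unadjusted p under 0.05 the counts were 47 and 0. The shares of all tested probes were 11.6% lower and 14.4% higher with the replicate number as a block. The members' median difference was -0.77, that of all tested probes 0.022, and the members ranged from -1.23 for *Iqgap3* to -0.26 for *Cenpa*. Both ends depend on the processing, and under alternatives *Iqgap3* was at -0.73 and *Cenpa* at -0.062. For all 47 members the 3 pinosylvin arrays lay below the 3 resveratrol arrays, as they did for 15.6% of all tested probes. The 2 members not called, *Kif2c* and *Cenpa*, had intervals that reach -1.38 and -0.47, so that differences of that size are not excluded for them, and both intervals, which are not adjusted for the number of tests, lie below 0. With the replicate number as a block both passed, with adjusted p of 0.0359 and 0.0399. The median was -0.76 within slide 1 and -0.77 within slide 2, and a slide block cannot move it.

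GR24 was lower than pinosylvin for 41 of 47 members and higher for 1, *Mad2l1*, against 26.8% of all tested probes lower and 29.6% higher. The median difference was -0.96 for the members and -0.0031 for all tested probes, and it was -0.96 within slide 1 and -0.995 within slide 2. The largest differences were those of *Kif20a*, *Cenpf* and *Ube2c*, at -2.24, -2.18 and -2.11. With normexp and quantile normalization the order was another, and *Kif20a* differed by -2.11, *Ccnb2* by -1.96, *Ube2c* by -1.68 and *Cenpf* by -1.45. Against resveratrol, GR24 was lower for all 47, with 23.9% of all tested probes lower and 27.4% higher. That median was -1.79, beside 0.024 for all tested probes, and it was -1.81 within slide 1 and -1.80 within slide 2. Here *Ube2c*, *Cenpf* and *Kif2c* differed most, by -3.10, -2.96 and -2.84, and *Mad2l1* least, by -0.23 (95% confidence interval -0.39 to -0.073, adjusted p = 0.0195), with *Cdca8* at -0.47 and *Smc2* at -0.47 next. This order depends on the processing, since with normexp and quantile normalization *Kif2c* differed by -1.47 and *Cenpf* by -2.16, and the *Mad2l1* call was lost under 7 of 28 alternatives (adjusted p up to 0.124).

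The values above are those of the brightest tested probe of each gene, and 16 members had further tested probes, 22 in all. One of them, the dimmest *Mad2l1* probe, was above background on the 3 control arrays and on no other array, so that it was tested through its high group alone, and it is left out here. Of the other 21 probes, 20 were lower with GR24, 19 with pinosylvin and 18 with resveratrol. The exception with GR24 was a second *Aurka* probe, matched through a predicted transcript, which was not called in any comparison and changed by -0.089 with GR24 (adjusted p = 0.609). A second *Cenpa* probe was lower with GR24, -1.32 (adjusted p = 0.00027), but not called with pinosylvin, -0.52 (adjusted p = 0.116), or resveratrol, -0.66 (adjusted p = 0.0518). A dim second *Nek2* probe missed the threshold with resveratrol, -0.996 (adjusted p = 0.0669). The further *Ndc80* probes, both dimmer and matched through a predicted transcript, fell more with GR24, by 2.98 and 3.55. The increase of *Mad2l1* from pinosylvin to GR24 rests on its brightest probe. Its next probe was lower with GR24 than with pinosylvin, -0.39 (adjusted p = 0.000963), and lower than the control by 1.80, so the place of *Mad2l1* outside the common order depends on the probe. Further probes of *Bub1b*, *Cks2*, *Prc1* and *Racgap1* differed in call from the brightest only in comparisons between compounds. Ranks among the members hold for the brightest probes, and some change with the mean over tested probes. There *Aurka* changed by -0.92 with GR24, -0.63 with pinosylvin and -0.36 with resveratrol.

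Other genes that peak in mitosis, a list of 57 with 43 tested, gave 42 lower and 0 higher with GR24 (median -2.25), and 0 were higher at an unadjusted p under 0.05 in limma. The gene not called was *Cenpk*, and the largest decreases were those of *Parpbp*, a regulator of recombination, -3.89 (adjusted p = 3.23e-10), and *Cenpw*, of the inner kinetochore, -3.42 (adjusted p = 1.44e-09). With pinosylvin 39 were lower and 1 higher (median -1.42), led by *Fam83d* and *Aspm* at -2.04 and -2.001, and the higher one was *Cdc25a*, a phosphatase of the entry into S phase, at 0.21. The number higher with pinosylvin was 1 with the percentile over spots and 0 under the other 5 scalings and background corrections tried. With resveratrol 35 were lower and 0 higher (median -0.71), led by *Aspm* and *Cdkn3* at -1.18 and -1.08, and 0 were higher at an unadjusted p under 0.05. *Aspm*, a spindle pole protein, read 2.56, 2.46 and 2.44 on the control arrays, 1.27, 1.36 and 1.28 with resveratrol, 0.43, 0.58 and 0.45 with pinosylvin and -0.90, -0.80 and -0.93 with GR24, and its groups followed the members' order without overlap.

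Mitotic machinery that is needed in other phases too, such as subunits of the anaphase-promoting complex and of cohesin, was followed beside the members. Of 35 such genes 32 were tested, and 10 fell and 8 rose with GR24. These counts are near the shares of all tested probes, 25.5% lower and 31.5% higher. The median of the list was -0.033, which changed sign between scalings, from -0.056 to 0.066, where the number higher was 7 to 12 and the number lower 10 to 11. The largest changes were -1.61 for *Nsl1* and -1.60 for *Dsn1*, both of the Mis12 complex at the kinetochore, and 1.32 for *Wapl*, which releases cohesin, and 0.65 for *Anapc1*. With pinosylvin 7 were lower, led by *Nsl1* and *Dsn1* at -1.27 and -0.96, and 0 higher (median -0.094), and the same count of 0 was found at an unadjusted p under 0.05. With resveratrol 5 were lower, led by *Dsn1* and *Pmf1* at -0.84 and -0.68, and 1 was higher, *Anapc1* at 0.28 (median -0.093). Shares of all tested probes were 8.27% lower and 8.28% higher with pinosylvin and 8.99% and 7.99% with resveratrol. The same shares stand beside the lists below.

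Among 24 regulators of mitotic transcription and of Cdk1, 18 were tested, with 8 lower and 3 higher with GR24, 7 and 1 with pinosylvin, and 4 and 1 with resveratrol. Their medians were -0.089, -0.19 and -0.19, and the first changed sign between scalings, from -0.13 to 0.011, where the number lower with GR24 was 5 to 8 and the number higher 3 to 4. *Mybl2* encodes B-Myb, the partner of MuvB that turns on the mitotic genes, and read 0.76, 0.94 and 0.57 on the control arrays, -0.14, -0.10 and -0.43 with resveratrol, -0.50, -0.43 and -0.63 with pinosylvin and -2.46, -2.51 and -2.77 with GR24. Its change was -3.34 (SE 0.126, adjusted p = 8.48e-09) with GR24, -1.28 (SE 0.126, adjusted p = 7.05e-05) with pinosylvin and -0.98 (SE 0.126, adjusted p = 0.000491) with resveratrol, and the means followed the members' order, though pinosylvin and resveratrol did not differ at the threshold, -0.30 (95% confidence interval -0.58 to -0.018, adjusted p = 0.152). Also lower were *E2f7*, a repressor of the E2F family, -1.46 with GR24, *Pkmyt1*, an inhibitory kinase of Cdk1, -1.05 with pinosylvin, and *E2f1*, -0.41 with resveratrol. Higher with GR24 were *Rbl2*, the pocket protein p130 of the repressive DREAM complex, 0.78 (adjusted p = 2.27e-05), and *Lin37*, a MuvB subunit, 0.59 (adjusted p = 0.000372). *E2f6* was the one higher with pinosylvin, 0.54, and with resveratrol, 0.30.

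Of 23 genes of the G1 and S phases 21 were tested, and 19 were lower with GR24, 14 with pinosylvin and 16 with resveratrol, with medians of -1.10, -0.61 and -0.60, and 2, 7 and 5 were not called. None was called higher by limma against the control, and at an unadjusted p under 0.05 the number higher was 0 with GR24, 1 with pinosylvin and 0 with resveratrol. With the percentile over spots, a setting chosen after seeing the data, 1 was called higher with GR24. The largest decreases were those of *Rrm2*, of ribonucleotide reductase, -3.001 (adjusted p = 5.31e-10) with GR24 and -1.39 with pinosylvin, and of the thymidine kinase gene *Tk1*, -2.78 with GR24, -1.61 with pinosylvin and -1.24 with resveratrol, where *Mcm6* of the replicative helicase changed by -1.195. Between pinosylvin and resveratrol 5 were lower and 8 higher with pinosylvin, with a median of 0.10. Of 7 inhibitors of cyclin-dependent kinases 5 were tested. With GR24 *Cdkn1c* and *Cdkn2d* fell by 2.71 and 1.07, among 3 lower, and 1 was higher, *Cdkn1b* or p27, by 0.64. With pinosylvin 2 were lower and 1 higher, *Cdkn2d* and *Cdkn2c* by -1.18 and -1.06 and *Cdkn1a* or p21 by 0.33, and with resveratrol 3 were lower, *Cdkn1c* and *Cdkn2c* most, at -1.17 and -0.68. With resveratrol 0 were higher in limma, and 1 at an unadjusted p under 0.05.

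The cultures carried markers of myotubes in all groups, and these moved with the members in part. Of 19 myotube markers 15 had a probe, all above background on all 12 arrays, and *Mymk*, *Mymx*, *Mylpf* and *Mef2c* had none. Their summed signal, with *Myh3* the brightest, was 1115, 1205 and 1062 on the control arrays, 940.1, 1000.3 and 902 with resveratrol, 1209, 1258 and 1157 with pinosylvin and 458, 445 and 424 with GR24. GR24 arrays were thus low and pinosylvin arrays overlapped with the upper control arrays, while the members were low with both compounds. With GR24 12 of 15 were lower and 0 higher, also at an unadjusted p under 0.05 (limma, median -1.51), led by *Myog* and *Acta1* at -5.83 and -3.88. With pinosylvin 1 was lower, *Myh8* at -0.44, and 2 higher, *Myog* and *Tnnt3* at 0.73 and 0.54 (median 0.18). With resveratrol 7 were lower and 0 higher, also at an unadjusted p under 0.05, led by *Ckm* and *Actc1* at -1.04 and -0.80 (median -0.30). Between compounds, all 15 myotube markers were lower with GR24 than with pinosylvin (median -1.64), and 12 were lower than with resveratrol (median -1.13), with 0 higher in either case, also at an unadjusted p under 0.05, though with the percentile over spots 1 was called higher than with resveratrol. With pinosylvin 11 were higher than with resveratrol and 0 lower (median 0.40), and at an unadjusted p under 0.05 the counts were 13 and 0. Of 15 markers of myoblasts and fibroblasts, all had a probe, and *Id3* was above background on 4 arrays only. Their sum, with *Col1a2* the brightest, was 840.2, 881 and 815 on the control arrays, 703, 717 and 715 with resveratrol, 736, 785 and 787 with pinosylvin and 516, 519.8 and 475 with GR24. Of 14 tested, 9 were lower and 3 higher with GR24, 5 and 2 with pinosylvin and 3 and 2 with resveratrol, and the medians were -0.49, -0.090 and -0.055. The largest changes in either direction with GR24 were those of *Cdh15* and *Col3a1* at -1.71 and -1.59 and *Id2* and *Hes1* at 1.22 and 0.65. With pinosylvin the largest were *Id1* and *Thy1* at -0.77 and -0.63 and *Hes1* and *Pdgfra* at 0.55 and 0.43, and with resveratrol *Vim* and *Col1a1* at -0.63 and -0.43 and *Hes1* and *Pdgfra* at 0.69 and 0.35. The part of these cell types in the members' decreases was not tested.

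Because the tested members moved together, the promoters of all members, tested or not, were searched for motifs of mitotic genes. The search used RefSeq windows of the assembly GRCr8, from 250 bases before to 50 bases after the transcript start that the table uses. The table holds 33469 windows, and 49 of 58 members had one, with 50 windows in all. *Aurkb*, *Ccna2*, *Foxm1*, *Incenp*, *Pbk*, *Pimreg*, *Racgap1*, *Tpx2* and *Ube2c* had none. The motifs were TTTGAA and TTCGAA, forms of the cell cycle genes homology region, and CCAAT, each searched on both strands. TTTGAA was present in 35 of 49 members (71.4%) and in 18.3% of all windows. CCAAT was present in 38 (77.6%) against 37.5% of all windows, and at least 2 copies in 26 (53.1%) against 11.2%. Both TTTGAA and CCAAT were present in 29 members (59.2%) and in 7.41% of all windows, and TTCGAA in 3 (6.12%) against 1.69%. Of the 47 members with a tested probe 38 had a window, and 28 of these (73.7%) held TTTGAA, 30 (78.9%) CCAAT and 23 (60.5%) both. *Aurka*, *Bub1*, *Kif2c*, *Melk* and *Ska3* held none of these letters in their windows. The members' TTTGAA matches, 41 in number, began at a median of 29 bases before the start (position -29), where those of all windows began at -125, and CCAAT began at -100 against -102. Shares of the members and of the lists count genes with a window, whereas those of all windows count windows. Among the other mitotic genes, 58.5% of 53 genes held TTTGAA, 54.7% CCAAT and 37.7% both. Among the constitutive machinery it was 16.1% of 31 for TTTGAA and 48.4% for CCAAT, and among the G1 and S phase genes 6.67% of 15 and 60% for CCAAT, with no window holding both in either list. TTCGAA was more frequent in these lists than among the members, at 15.1%, 9.68% and 13.3% in the same order, from 8, 3 and 2 genes. These are matches of letters, and no binding was measured.

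**Figure D3:**
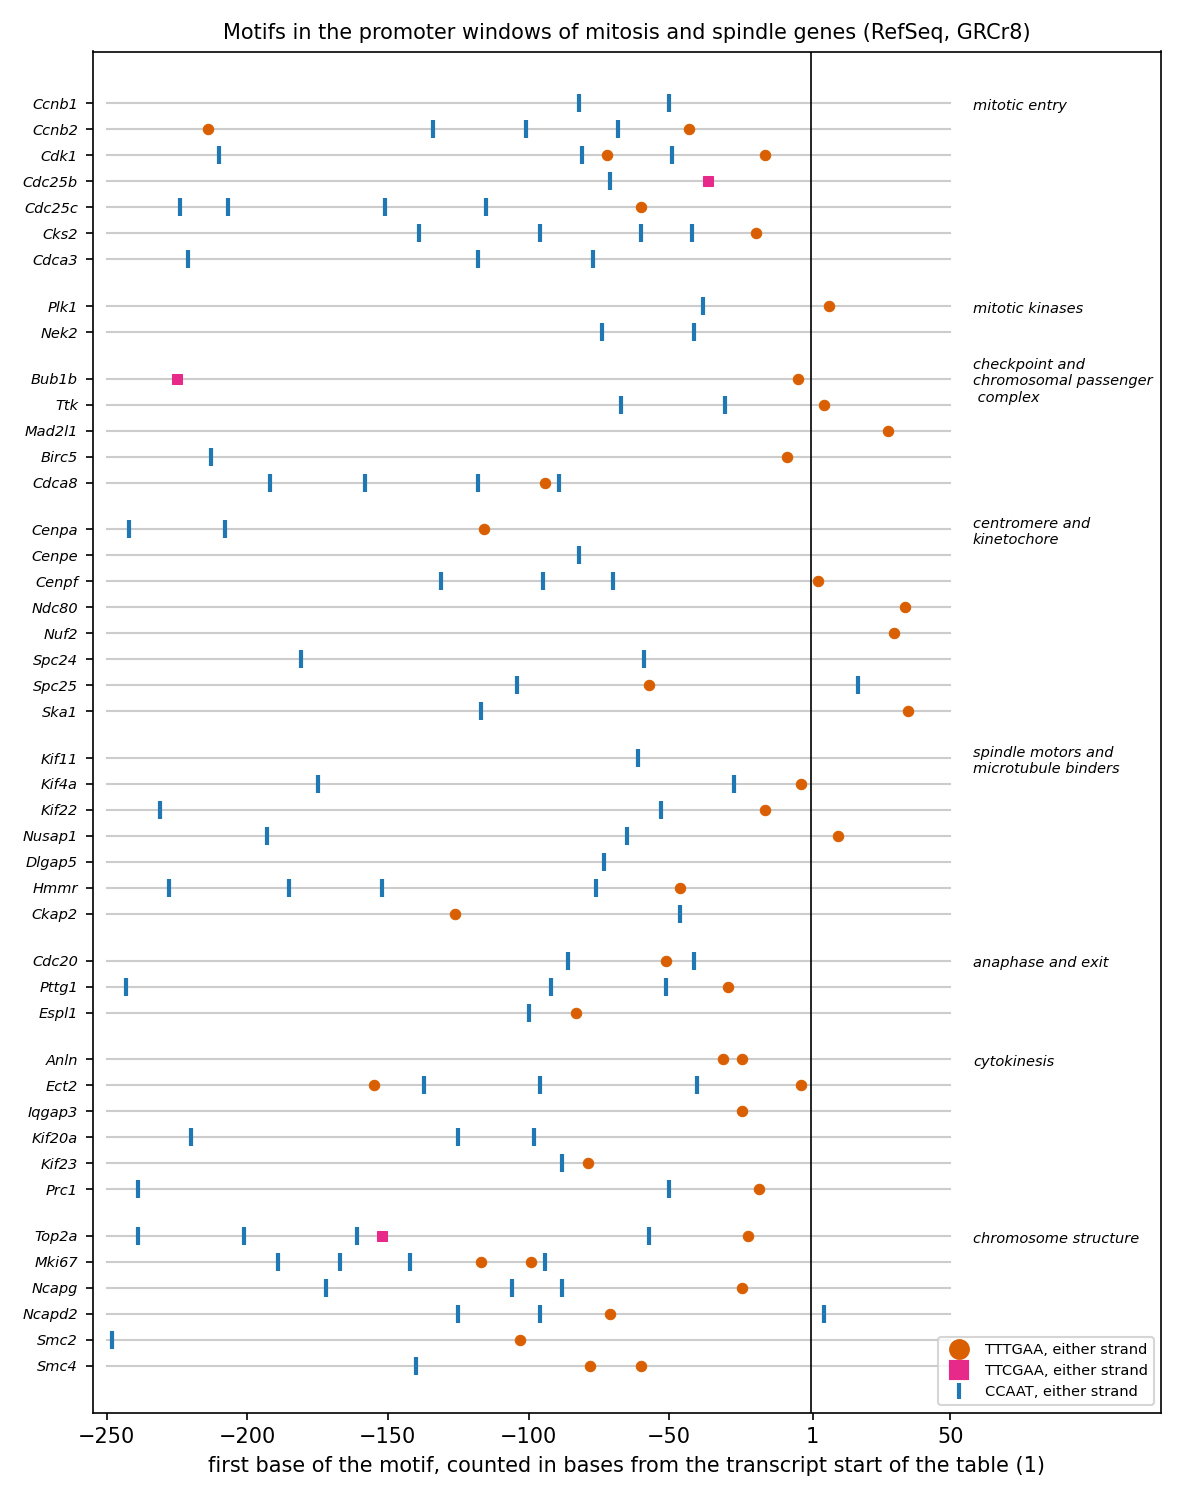
Positions of TTTGAA (circles), TTCGAA (squares) and CCAAT (bars) on either strand in the promoter windows of the members with at least 1 match, grouped by role, in bases from the transcript start of the RefSeq table. TTTGAA matches gather near the start, with a median position of -29.

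For each role, the window of the member with the largest GR24 decrease is shown, among tested members with 1 window, so that the arrangement of the motifs can be seen. In 3 roles a member not shown fell more with GR24 than the one shown: *Kif2c*, which has 2 windows and none of the motifs in either, and *Ube2c*, *Pimreg* and *Pbk*, which have no window. With normexp *Kif20a* fell more than *Iqgap3*, the one shown for cytokinesis. Sequences run 5′ to 3′ on the strand of the gene in GRCr8, and capitals mark the motifs. A CCAAT match on the other strand reads ATTGG here. A TTTGAA match on the other strand appears as its reverse complement. The windows lie at chr8:79981609-79981908, minus strand, for *Ccnb2*, chr1:186147408-186147707, plus strand, for *Plk1*, chr8:93634389-93634688, plus strand, for *Ttk*, and chr13:103760837-103761136, minus strand, for *Cenpf*. Those of the others are chr1:244536617-244536916, plus strand, for *Kif11*, chr7:135302466-135302765, plus strand, for *Espl1*, chr2:175839751-175840050, plus strand, for *Iqgap3*, and chr1:199952544-199952843, minus strand, for *Mki67*. The start that the table uses lies inside the outermost coordinates of 6 of the 8 genes, by 59 bases for *Ccnb2*, 1961 for *Ttk*, 45 for *Cenpf*, 256 for *Espl1*, 254 for *Mki67* and 41951 for *Kif11*, so that a window may not be that of the gene's outermost start. *Ccnb2* holds 3 CCAAT matches and 2 of TTTGAA, *Cenpf* 3 and 1, and *Ttk* 2 and 1. *Plk1* and *Espl1* hold 1 of each, *Kif11* 1 CCAAT only and *Iqgap3* 1 TTTGAA only. *Mki67* holds 4 CCAAT and 2 TTTGAA matches, and the last of each overlap.
Ccnb2: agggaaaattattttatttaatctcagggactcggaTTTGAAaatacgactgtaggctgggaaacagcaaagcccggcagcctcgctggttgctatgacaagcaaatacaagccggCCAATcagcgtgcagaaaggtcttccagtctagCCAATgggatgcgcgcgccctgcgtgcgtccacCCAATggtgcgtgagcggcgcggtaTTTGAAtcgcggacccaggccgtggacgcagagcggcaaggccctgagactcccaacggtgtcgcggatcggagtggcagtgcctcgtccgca
Plk1: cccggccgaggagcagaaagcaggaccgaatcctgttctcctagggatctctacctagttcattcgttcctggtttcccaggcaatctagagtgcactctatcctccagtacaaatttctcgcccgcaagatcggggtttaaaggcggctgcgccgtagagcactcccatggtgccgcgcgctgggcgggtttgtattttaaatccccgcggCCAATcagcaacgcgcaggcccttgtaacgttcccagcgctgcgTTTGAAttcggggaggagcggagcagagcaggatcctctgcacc
Ttk: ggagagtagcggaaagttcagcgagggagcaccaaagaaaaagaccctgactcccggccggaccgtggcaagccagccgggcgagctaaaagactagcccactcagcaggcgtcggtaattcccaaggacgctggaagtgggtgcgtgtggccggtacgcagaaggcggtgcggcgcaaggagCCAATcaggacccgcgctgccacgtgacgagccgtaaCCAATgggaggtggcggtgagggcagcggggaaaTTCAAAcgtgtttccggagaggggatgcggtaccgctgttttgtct
Cenpf: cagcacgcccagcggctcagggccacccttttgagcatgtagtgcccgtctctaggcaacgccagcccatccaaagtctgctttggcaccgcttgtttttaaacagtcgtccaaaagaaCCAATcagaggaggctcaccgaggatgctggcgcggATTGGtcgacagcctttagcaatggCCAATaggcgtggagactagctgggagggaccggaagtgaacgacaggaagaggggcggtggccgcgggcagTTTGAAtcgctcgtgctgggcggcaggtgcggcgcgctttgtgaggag
Kif11: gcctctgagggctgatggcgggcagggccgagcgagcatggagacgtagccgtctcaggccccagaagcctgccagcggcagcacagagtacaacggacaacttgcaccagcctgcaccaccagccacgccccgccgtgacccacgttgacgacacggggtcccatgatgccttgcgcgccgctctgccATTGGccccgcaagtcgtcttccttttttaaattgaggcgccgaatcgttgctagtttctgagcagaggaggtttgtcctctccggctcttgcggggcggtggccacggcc
Espl1: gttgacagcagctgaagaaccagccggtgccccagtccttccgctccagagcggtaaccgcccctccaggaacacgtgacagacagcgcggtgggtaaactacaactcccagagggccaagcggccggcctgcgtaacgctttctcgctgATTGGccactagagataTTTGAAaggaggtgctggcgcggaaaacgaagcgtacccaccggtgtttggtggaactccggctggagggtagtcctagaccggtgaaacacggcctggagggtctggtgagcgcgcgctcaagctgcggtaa
Iqgap3: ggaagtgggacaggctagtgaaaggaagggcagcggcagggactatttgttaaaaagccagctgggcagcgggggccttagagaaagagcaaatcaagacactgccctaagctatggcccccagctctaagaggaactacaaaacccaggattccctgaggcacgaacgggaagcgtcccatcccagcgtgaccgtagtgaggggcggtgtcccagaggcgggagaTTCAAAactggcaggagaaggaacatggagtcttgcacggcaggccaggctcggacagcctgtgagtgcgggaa
Mki67: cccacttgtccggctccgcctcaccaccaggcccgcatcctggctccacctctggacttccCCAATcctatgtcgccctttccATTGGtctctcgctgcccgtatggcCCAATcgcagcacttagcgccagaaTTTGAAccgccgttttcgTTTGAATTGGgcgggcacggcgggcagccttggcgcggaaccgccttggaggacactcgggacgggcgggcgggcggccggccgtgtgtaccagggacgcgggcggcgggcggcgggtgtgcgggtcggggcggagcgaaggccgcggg

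*Mad2l1*, chosen after its values were seen because its brightest probe stood outside the common order, has its window at chr4:97236259-97236558, plus strand. It holds 1 TTTGAA match, after the start that the table uses, and no CCAAT, and that start lies 90 bases inside the outermost coordinates of the gene.
Mad2l1: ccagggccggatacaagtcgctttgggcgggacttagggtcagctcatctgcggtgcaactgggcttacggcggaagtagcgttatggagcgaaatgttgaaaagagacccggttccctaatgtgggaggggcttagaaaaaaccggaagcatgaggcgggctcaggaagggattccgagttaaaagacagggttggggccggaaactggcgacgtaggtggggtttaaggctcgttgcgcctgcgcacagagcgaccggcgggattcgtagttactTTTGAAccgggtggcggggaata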

How the data were processed

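Each of 12 cultures, 3 for every group, gave RNA for 1 Agilent 1-colour array. The authors deposited scanner output made with Agilent Feature Extraction 12.0.0.7, whose processed signal is an intensity with background subtracted within the array and none of the normalization between arrays, and whose median signal is a raw intensity. The authors also deposited a table of normalized log2 values, made with limma by a method that is not stated, which was used as an alternative. Processed signals were put on the log2 scale, spots marked as outliers were left out, spots of a probe were averaged, and the 75th percentile of each array over all probes was subtracted. A probe was tested if at least 0.5 of its spots passed the scanner's mark for signal well above background on each of the 3 arrays of some group. The 12 arrays were fitted together, by group means, in limma 3.58.1 (R 4.3.3), with eBayes and Benjamini-Hochberg adjustment over the 24279 tested probes of each of the 6 comparisons at 0.05, checked on simulated data. RefSeq accessions, without versions, were matched to symbols of GRCr8, which named 21109 of 45598 probes (46.3%). A gene was represented by its brightest tested probe over the 12 arrays. Values on each array are given for members chosen by role. Also named are the members with the 3 largest and 3 smallest changes of each comparison, members not called against the control, called higher, near background or with probes that differ in call, and of each other list the 2 largest called changes each way against the control. The members, the lists and the order of the group means were chosen with earlier results of these data known. The study's methods give 3 independent experiments, and arrays of equal replicate number were taken as 1 experiment, which the methods do not state. After group means were removed, arrays of equal number correlated at 0.191 to 0.744 over 18 pairs of arrays. Arrays of equal number also shared a row of a slide, so experiment and that position cannot be told apart. A replicate number held 1 array of each group, so the replicate block cannot move the members' medians, -2.73, -1.64 and -0.85 against the control. It changes the errors only. With it the calls of 3 members changed, those of *Kif2c*, *Cenpa* and *Incenp*, each passing the threshold in further comparisons. The alternatives were quantile normalization, normexp with either scaling, the deposited table, other filters and percentiles, other fits and blocks, the mean over probes, outlier spots kept and each array left out. Figures were drawn with matplotlib 3.10.9.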

Additional observations from a re-analysis of the deposited data

How the results depend on the processing

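The members' medians kept their sign under every alternative. The counts below come from alternatives that tested different numbers of members, such as 48 in the deposited table. The number lower was 45 to 49 with GR24, 45 to 48 with pinosylvin and 45 to 47 with resveratrol, and 39 to 42, 45 to 48 and 42 to 47 for GR24 against pinosylvin, GR24 against resveratrol and pinosylvin against resveratrol. The order of group means held for 41 to 45 members. The GR24 median of -2.73 moved to -2.40 with normexp and the 75th percentile, -2.41 with normexp and quantile normalization and -2.47 in the deposited table. The GR24 against resveratrol median of -1.79 moved to -1.47 with normexp and either scaling, -1.63 in the deposited table and -1.68 with the percentile over spots in place of probe means, a setting chosen after seeing the data. The GR24 against pinosylvin median of -0.96 moved to -0.83 and -0.82 with normexp and the 75th percentile or quantiles. The number of members higher with GR24 than with pinosylvin, 1, was 2 in the deposited table, with the percentile over probes above background on all 12 arrays, with the replicate block, with the slide as a block, within slide 1 and with the percentile over spots, and 0 with the mean over all tested probes of a gene. With an array left out it was 1 to 2, and 2 without pinosylvin replicate 2, where *Incenp* joined at 0.29 (adjusted p = 0.0489), as it did with the replicate block at 0.22 (0.0130). With the mean over probes the *Mad2l1* difference was -0.094 (adjusted p = 0.483), since its probes differ. That mean includes the dimmest *Mad2l1* probe, above background on the control arrays alone, so it rests partly on background readings. The causes of the other moves were not tested.

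Single calls near the threshold depended on settings. *Kif2c* passed with resveratrol under 10 alternatives and between pinosylvin and resveratrol under 11, among them the replicate block (adjusted p of 0.0439 and 0.0359), the slide as a block (0.0336 and 0.0269) and those without GR24 replicate 2 or 3, with adjusted p of 0.0193 and 0.00631 for resveratrol and 0.0161 and 0.00537 for the difference. *Cdc25b* missed the threshold with resveratrol without control replicate 1 (adjusted p = 0.0588), control replicate 2 (0.0558) or resveratrol replicate 3 (0.0536), with no filter on dim probes (0.0513) and with only the 6 arrays compared (0.0613), and *Smc4* without resveratrol replicate 1 (0.0535) and within slide 1 (0.0628). Between pinosylvin and resveratrol *Cdca8* missed it under 16 alternatives, among them those without control replicate 1, GR24 replicate 1 or 3, resveratrol replicate 1 or 2 or any pinosylvin replicate (adjusted p of 0.051 to 0.16), and *Kif20a* under 11, among them those without control replicate 1 or 2, GR24 replicate 1 or any pinosylvin or resveratrol replicate (0.0524 to 0.156). *Smc4* missed it there without pinosylvin replicate 1 or 2 or resveratrol replicate 2 or 3 (0.0575 to 0.109), with no filter on dim probes (0.0902) and within slide 1 (0.0556), and *Cenpa* passed with the replicate block (0.0399), with the slide as a block (0.0300) and without pinosylvin replicate 2 (0.0488). *Mad2l1* missed it between GR24 and resveratrol under 7, among them those without GR24 replicate 1 or 3 or resveratrol replicate 2 (0.0598 to 0.0792). Between GR24 and pinosylvin *Cks2* missed it without GR24 replicate 1 (0.0514) or pinosylvin replicate 3 (0.0582), with no filter on dim probes (0.0507), with the percentile over spots (0.0668) and within slide 1 (0.153), and *Smc4* without GR24 replicate 3 (0.055) or pinosylvin replicate 3 (0.0518), with the percentile over spots (0.0540) and within slide 1 (0.105). There *Cdc25b* passed within slide 1 (0.0112) and with normexp and quantile normalization (0.0376), and *Smc2* within slide 1 (0.0378).

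The percentile over spots moved the median of all tested probes to 0.13 with GR24 and to 0.14 between GR24 and resveratrol, with 5358 lower and 9223 higher with GR24, so changes there are relative to that shift. With no filter on dim probes the median of all probes was 0.12, 0.11 and -0.13 with GR24, pinosylvin and resveratrol. With an array left out, the calls over all tested probes moved as well. The number higher with pinosylvin went from 2010 to as few as 1236, and with resveratrol from 1941 to 1192. Between pinosylvin and resveratrol 1664 lower went to as few as 1030, and 1864 higher to 1086. Within slide 2 there was no replicate and no test. Names from a gene-name column were not run, since the scanner output used here pairs probes with accessions only, and normexp used the median signal. With GR24 against the control, the fold of 7 of 47 members moved by over 1.5 times under some alternative. With normexp and quantile normalization *Cenpf* went from -3.998 to -3.13, *Kif2c* from -3.59 to -2.06, *Iqgap3* from -3.67 to -2.15, *Aurkb* from -2.77 to -1.90 and *Cenpa* from -2.25 to -1.49. With the mean over all tested probes of a gene *Aurka* went from -1.75 to -0.92 and *Ndc80* from -2.30 to -2.94. The same held for 4 members between GR24 and pinosylvin (*Cenpf*, *Iqgap3*, *Kif2c* and *Ndc80*), 5 between GR24 and resveratrol (these and *Aurkb*) and 2 with pinosylvin (*Aurka* and *Iqgap3*). Arrays measure relative levels, so a change shared by most genes would not be seen.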
